A study of Mus musculus with 4 samples.

Results

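Among blood stem and progenitor cells of the mouse fetal liver, a small group carried transcripts of the lymphoid lineages, and 441 of 8094 cells in all belonged to it. They were sorted as LSK cells, negative for lineage markers and positive for Sca1 and for c-Kit (CD117). Haematopoietic stem cells (HSCs) and their multipotent descendants fall in this gate. Cells with at least 8000 gene UMIs (unique molecular identifiers, 1 per captured transcript) and at most 10% mitochondrial UMIs were considered. A cell was taken as lymphoid-primed if it held at least 2 UMIs of Il7r, or if at least 2 of Il7r, Ccr9, Dntt, Ebf1 and Rag1 were detected with a sum of at least 3 UMIs. Cells with 2 or more UMIs of Elane, Klf1, Pf4 or Cma1, which mark granulocyte-monocyte, erythroid, megakaryocyte and mast cells, were left out, as were cells low for the CD48 antibody. These transcripts and the CD48 tag chose the cells, so their levels below are a description.

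The cells came from a CITE-seq experiment at E17.5 (embryonic day), which reads messenger RNA and antibody-linked tags from the same single cells, in a study of BCLAF1, a nuclear regulator of RNA synthesis and processing, in the stress responses of HSCs. Embryos with both Bclaf1 alleles floxed and no Cre gave the control library (WT). The knockout library (KO) came from embryos with the same floxed alleles and Vav-Cre, a recombinase driven by a promoter active in blood cells from early in their development. Livers of 10 embryos per genotype were pooled, enriched for c-Kit on beads and double sorted. Each genotype was therefore 1 library, the cells within it are not replicates, and differences between WT and KO carry no replicate check and no test. Intervals are 95% intervals for counting error alone.

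Lymphoid priming is the low-level transcription of lymphoid genes in progenitors that have not yet committed to a lineage. Such cells typically carry FLT3, a receptor tyrosine kinase, and later the interleukin-7 receptor, whose signal keeps early B and T cell precursors alive. EBF1 starts the B cell programme, Notch signalling starts the T cell programme, CCR9 guides progenitors to the thymus, and RAG1 with RAG2 cuts antigen receptor genes for recombination.

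The 6 antibodies were told apart by the 15-base tags listed with the data, shown because they define the surface readout and because the CD48 tag, in capitals, took part in choosing the cells.
CD48: AGAACCGCCGTAGTT
CD117: tgcatgtcatcggtg
Sca1: gtccgactaatagct
CD34: aaactcaggtccttc
CD201: tatgatctgcccttg
CD150: caacgcctagaaacc
Any pair of these tags differed at 8 to 14 of the 15 positions. The Sca1 tag was carried by PE-streptavidin, so Sca1 was read indirectly.

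Lymphoid-primed cells made up 261 of 5352 WT cells (4.88%, Clopper-Pearson interval 4.32 to 5.49) and 180 of 2742 KO cells (6.56%, 5.67 to 7.56). The share was higher in KO by 1.69 percentage points (Newcombe interval 0.63 to 2.82). The KO library was deeper, however, with a median of 32609 gene UMIs per lymphoid-primed cell in KO and 20817 in WT, and a rule based on UMI minima finds more cells at greater depth. After each cell was thinned to 8000 UMIs, 119 WT cells (2.22%) and 70 KO cells (2.55%) met the rule, a difference of 0.33 points (-0.35 to 1.08). At matched depth no difference in share was therefore detectable.

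The transcript rule alone was met by 287 WT and 199 KO cells. Of these, 22 WT and 19 KO cells were left out for transcripts of another lineage, most often Cma1 (13 and 14 cells), and 4 WT and 0 KO cells for low CD48. The lowest CD48 level kept was a centred log ratio of 2.40 in WT and 2.45 in KO, and the highest level left out was 2.31. The Il7r minimum admitted 149 WT and 123 KO cells, and the rule on several genes 204 and 141, with 92 and 84 meeting both. Cells just inside the limit, with exactly 2 Il7r UMIs and no other route, numbered 23 in WT and 15 in KO. Levels are given as CPM, the UMIs of a gene per 1000000 gene UMIs. Mzb1 was at 57.2 CPM in these WT cells and at 28.2 CPM in the KO ones, beside 52.2 and 26.9 CPM in the 95 WT and 41 KO cells just outside with 1 Il7r UMI. Mzb1 was thus at similar levels on both sides of this edge. Other genes differed across it. Trbc2, a T cell receptor gene, was at 221 CPM inside and 144 outside in WT, but at 53.3 and 143 in KO. The myeloid gene Mpo was at 303 and 346 CPM in WT and at 565 and 301 in KO.

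The lymphoid-primed cells held 6443330 gene UMIs in WT and 6661110 in KO, so that 3 UMIs, the limit below which a level of 0 cannot be told from a low one, corresponded to 0.466 and 0.450 CPM. Median mitochondrial shares were 4.28% and 4.41%, close to 4.01% and 4.17% in the other LSK cells. The 2 libraries shared 5 cell barcodes, none of which was a lymphoid-primed cell. Doublets were not removed. Of the cells with the highest doublet scores, 13 WT and 4 KO were lymphoid-primed.

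Il7r, which encodes the interleukin-7 receptor alpha chain, was detected in 207 WT cells (79.3%) and 152 KO cells (84.4%). Ccr9, the thymus-homing chemokine receptor, was found in 161 (61.7%) and 117 (65.0%). Ebf1 was detected in 118 WT (45.2%) and 73 KO cells (40.6%), and Rag1 in 46 (17.6%) and 40 (22.2%). Dntt, which encodes the terminal transferase that adds nucleotides at antigen receptor joints, was nearly absent, with 2 cells in each library. Most cells combined 2 of the 5 genes (144 WT and 91 KO cells), while 7 and 13 cells combined 4, and 1 WT cell held all 5.

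The group had 3 further markers that the rule did not use, Mzb1, Ighm and Trbc2. They were listed for this group with earlier results of these data known, so their levels describe the label and do not check it. All 3 were higher in lymphoid-primed cells than in the other LSK cells of both libraries. Mzb1, a chaperone of B cells and plasmacytoid dendritic cells, stood at 166 CPM against 19.2 CPM in WT and at 124 against 11.5 in KO. Ighm, the constant region of the immunoglobulin mu chain, reached 218 against 29.0 CPM in WT and 233 against 23.3 in KO. Trbc2, a T cell receptor beta constant region, reached 317 against 41.0 CPM and 280 against 30.6.

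Erythroid cells, which should lack these transcripts, seldom held them. Mzb1 was detected in 82.8% of WT and 76.7% of KO lymphoid-primed cells, but in 6.73% and 5.45% of erythroid cells (at least 2 UMIs of Klf1), which were the deeper cells, with medians of 53073 and 69241 UMIs. Ighm was found in 96.6% and 95% of the lymphoid-primed cells and in 9.94% and 4.90% of the erythroid ones.

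Of 5616 genes measured for this comparison, 102 were at least 2-fold higher in lymphoid-primed cells in both libraries (1.82%) and 76 at least 2-fold lower (1.35%). Arpp21, a regulator of RNA known from lymphoid precursors and neurons, stood at 22.5 CPM in WT and 31.1 in KO, against 1.18 and 1.16 in other cells. Gfra1, a receptor for glial cell line-derived factors, stood at 22.2 and 27.5 CPM against 1.08 and 0.834. Cox6a2, a respiratory chain subunit also found in plasmacytoid dendritic cells, reached 57.4 and 36.5 CPM against 3.21 and 3.03. Further genes among the 20 highest were Sdc4, Gm19331, Tmem108, Trbc1, Klrd1, Emp1, Tmem121, Cd33, Lck, Hes1, Sema3d, St8sia1, Mn1 and Nfil3. Lck, the kinase of T cell receptor signalling, was at 30.9 and 23.3 CPM against 5.18 and 3.83, and Klrd1, a lectin receptor of natural killer cells, at 29.3 and 23.3 against 3.83 and 1.77.

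Of the 10 measured genes of FLT3 and KIT signalling, 1 was at least 2-fold higher than in other cells in both libraries. Of the 14 of IL-7 receptor signalling 0 were, with Il7r left out as a gene of the rule. Il7r itself was at 94.7 CPM in WT and 87.8 in KO, against 1.36 and 0.916 in other cells. Flt3 stood at 170 CPM in WT and 163 in KO, against 65.3 and 52.9 in other cells. Notch1 was at 147 and 157 CPM against 33.4 and 30.7, and its target Hes1 at 27.3 and 33.8 against 4.41 and 5.79. Of the 7 measured Notch pathway genes, 2 were at least 2-fold higher than in other cells in both libraries. The 20 genes of the list summed to 483 and 503 CPM against 312 and 322. Rbpj, the DNA-binding partner of Notch, was at 68.1 and 66.1 CPM against 55.3 and 58.5, and Dtx1 was at 0.155 CPM in WT and had no UMI in KO.

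Lymphoid transcription factors were also higher, with 8 of 23 measured members at least 2-fold above other cells in both libraries and 1 at least 2-fold below. Satb1, a chromatin organiser of lymphoid progenitors, stood at 179 CPM in WT and 188 in KO against 60.5 and 56.7. Mef2c, which favours lymphoid over myeloid fate, was at 627 and 665 CPM against 303 and 292. Ets1 reached 30.7 and 37.4 CPM against 7.97 and 7.61. Tcf4, which encodes an E protein of lymphoid and dendritic cells, reached 228 and 243 against 106 in both libraries. Ikzf1, the gene for Ikaros, was at 189 and 207 CPM against 90.8 and 103. Ikzf3, which marks later B cell stages, had no UMI in any lymphoid-primed cell.

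Of 8 measured genes on the list of T, natural killer and innate lymphoid cells, 5 were at least 2-fold higher than in other LSK cells in both libraries: Trbc1, Trbc2, Lck, Klrd1 and Tox. The 29 genes of this list summed to 680 CPM in WT and 693 in KO, against 276 and 296. Other genes of the list were at or near 0. Cd3e had 0.310 CPM in WT and 0.150 in KO, Gzma 0.310 and 0, and Tbx21, Eomes and Ncr1 had no UMI in either library. Igkc and Iglc2, the light chain constant regions of B cells, also had none.

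Programmes of other lineages were lower, in part through the rule. The 18 HSC genes summed to 253 CPM in WT lymphoid-primed cells against 611 in other cells, and to 267 against 552 in KO. Mecom, a factor that maintains HSCs, was at 13.2 and 14.1 CPM against 62.0 and 47.9. The 14 erythroid genes summed to 340 and 377 CPM against 1307 and 1386, and the 12 mast cell and basophil genes to 167 and 194 against 545 and 699. The 17 granulocyte-monocyte genes differed less, at 971 and 1189 CPM against 1415 and 1584. Mpo, the myeloperoxidase of early myeloid cells, was at 215 and 287 CPM, below the 293 and 348 of other LSK cells. It was still detected in 72.4% of WT and 85.6% of KO lymphoid-primed cells. With each cell thinned to 8000 UMIs, Mpo was detected in 57.1% and 68.9% of lymphoid-primed cells, beside 16.7% and 11.7% of erythroid cells.

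**Figure D1:**
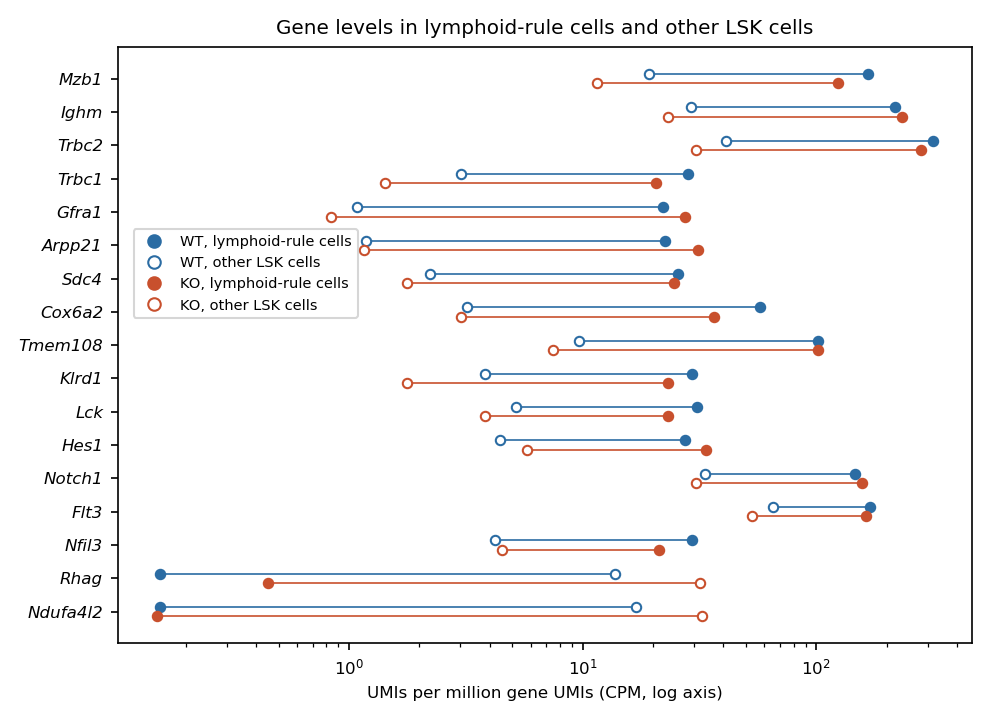
Levels of 17 genes in CPM (horizontal log axis) in lymphoid-primed cells (filled points, 261 WT and 180 KO cells) and in other LSK cells (open points), WT in blue and KO in red, each point the sum over cells of 1 library. The filled points lie to the right of the open ones in both libraries for the first 15 genes and to the left for Rhag and Ndufa4l2.

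At the surface, CD34 set these cells apart from other LSK cells in both libraries. Levels are centred log ratios, the natural log of a cell's tag count plus 1 less its mean over the 6 antibodies. The median for CD34, a sialomucin of blood progenitors, was -0.15 in WT and -0.11 in KO, against -0.77 and -0.79 in other LSK cells. The upper quartile of the other cells, -0.30 in both libraries, lay below these medians. Against other cells that passed the same CD48 and lineage limits, the medians of which were -0.49 and -0.48, CD34 was higher too. The Cd34 transcript was at 274 and 263 CPM in lymphoid-primed cells against 190 and 163.

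CD150 (SLAMF1), carried by HSCs, was low, with medians of -2.51 in WT and -2.39 in KO against -2.14 and -2.05. CD201, the endothelial protein C receptor, had medians of -2.59 and -1.87 against -2.36 and -1.68. Against other cells under the same limits these differences shrank or turned: the medians of those cells were -2.35 and -2.37 for CD150, and -2.56 and -1.92 for CD201, below that of lymphoid-primed cells in KO. KO cells thus had a higher CD201 ratio than WT cells among lymphoid-primed and other cells alike. CD201 tags were few, with medians of 7 per WT and 30 per KO lymphoid-primed cell. The total of all tags also differed, at medians of 3650 and 6604. The part of tag depth and staining in this difference was not tested. CD117 was slightly lower than in other cells, at 1.68 and 1.32 against 1.74 and 1.51. Sca1 medians of 0.26 and -0.18 lay beside 0.28 and -0.20 in other cells, and the sign of this small difference changed between libraries and with the scale. CD48, which the rule used, had medians of 3.33 and 3.18.

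**Figure D2:**
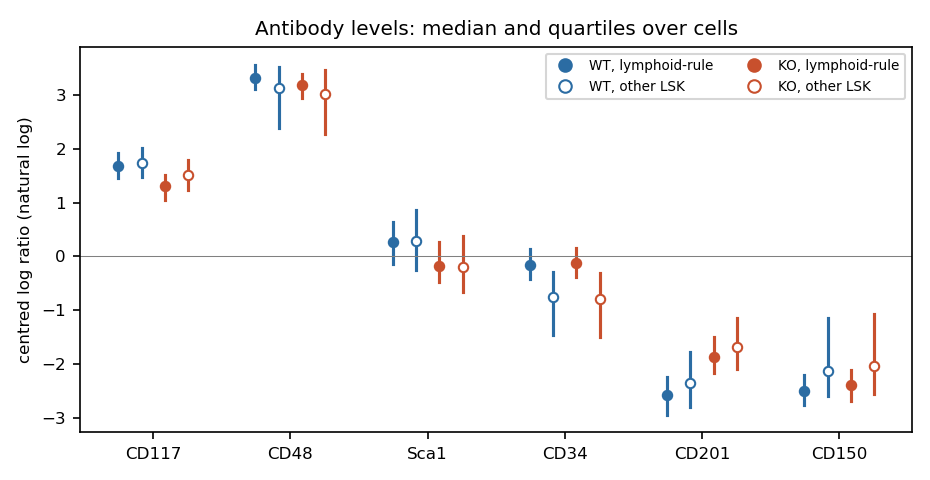
Median (points) and quartiles (bars) over cells of the centred log ratio of each antibody, in natural log units, for lymphoid-primed (filled) and other LSK cells (open), WT in blue and KO in red. CD34 medians of lymphoid-primed cells, -0.15 and -0.11, lie above the quartile bars of the other cells.

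Within the group, Ebf1 and Ccr9 divided the cells into overlapping programmes. Both were detected in 79 WT and 54 KO cells, Ebf1 alone of the pair in 39 and 19, Ccr9 alone in 82 and 63, and neither in 61 and 44. As detection depends on depth, a cell without a UMI may still express the gene. The genes named in the next 3 paragraphs that belong to no list were chosen after their values were seen.

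Mzb1, Hes1 and Arpp21 were higher in cells with Ebf1. Mzb1 was at 261 CPM with Ebf1 and 101 without it in WT, and at 212 and 68.5 in KO. Hes1 was at 42.8 and 16.7 CPM in WT and 48.9 and 24.1 in KO, and Arpp21 at 35.9 and 13.3 and at 48.5 and 19.9. Lower with Ebf1 were Nfil3, a factor required for innate lymphoid and natural killer cells, with 4.97 against 46.0 CPM in WT and 1.92 against 33.7 in KO, and Irf8, a factor of monocytes and dendritic cells, with 32.1 against 123 and 22.3 against 163. Id2, an inhibitor of E proteins that favours innate over B cell fate, was at 26.7 against 51.5 CPM in WT and at 21.5 against 57.9 in KO. Nfil3, Irf8 and Id2 were thus lower in cells with Ebf1 in both libraries. Other genes of innate and dendritic cells were mixed. Klrd1 and Siglech were also lower with Ebf1, while Lck and Cox6a2 were higher. Cox6a2 was at 67.6 CPM with Ebf1 and 50.5 without it in WT, and at 45.0 and 31.0 in KO. The rule shaped part of this contrast, as the 57 WT and 39 KO cells admitted by Il7r alone had no Ebf1 UMI.

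Cells with Ccr9 carried more T cell receptor transcripts. Trbc2 was at 385 CPM with Ccr9 and 212 without it in WT, and at 384 and 113 in KO. Trbc1 was at 40.3 and 9.82 CPM, and at 29.5 and 6.25. Zfp503 (33.9 against 1.57 CPM in WT, 28.5 against 1.17 in KO) and Cavin2 (19.5 against 0.393 and 22.2 against 0.391) were nearly confined to cells with Ccr9 within the group. Prtn3, a granule protease of early myeloid cells, was lower with Ccr9, at 127 against 293 CPM and 154 against 432, and Mpo at 170 against 284 and 206 against 418.

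Cells with neither gene had the highest granulocyte-monocyte sum of the 4 sets. It was 1501 CPM in WT and 1880 in KO, against 706 and 751 in cells with both Ebf1 and Ccr9. Other LSK cells under the same CD48 and lineage limits stood at 1445 and 1561 CPM, so in WT this set was near them. Most cells with neither gene, 57 of 61 in WT and 39 of 44 in KO, were admitted by Il7r alone. Across these sets, 31 WT and 18 KO cells held Siglech, a receptor of plasmacytoid dendritic cells. Irf8 was at 447 CPM in WT and 415 in KO in these cells, against 51.0 and 67.6 in the remaining ones, and Ighm at 386 and 330 CPM. Pld4, a nuclease of dendritic cells, was at 95.6 and 67.1 CPM against 27.4 and 19.7. Of the MHC class II genes, H2-Aa was found in 2 WT and 7 KO cells, and 1 WT cell held 65 of the 66 WT UMIs. Cd74, the invariant chain, was found in 30 WT cells (11.5%) and 23 KO cells (12.8%).

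**Figure D3:**
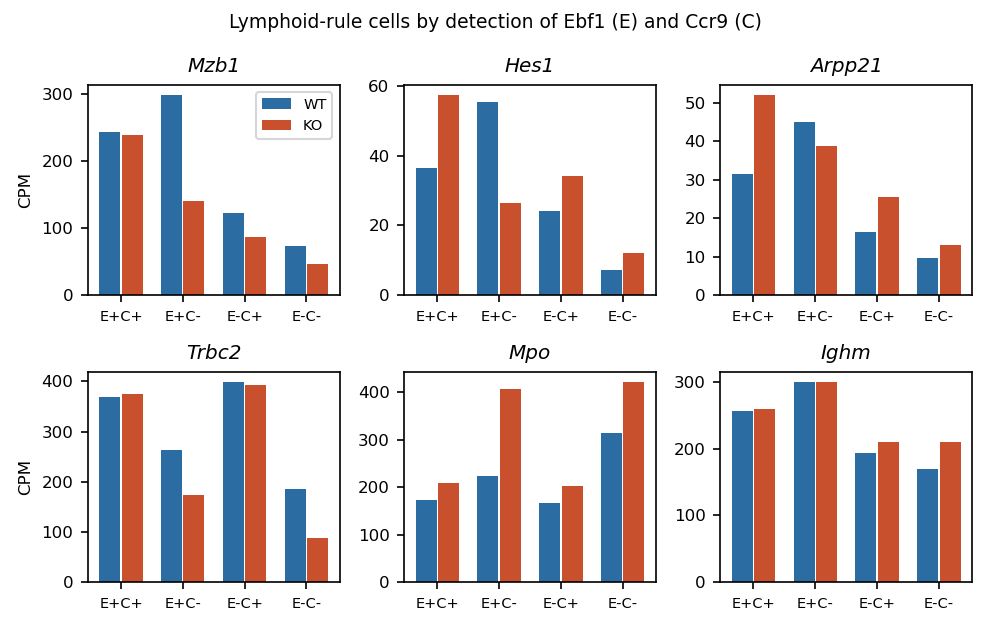
Levels in CPM (vertical axes, from 0) of 6 genes in lymphoid-primed cells with (+) or without (-) a UMI of Ebf1 (E) and Ccr9 (C), WT in blue and KO in red, each bar the sum over the cells of 1 set and library with no interval drawn. Mzb1 and Arpp21 are higher in both E+ sets than in the 2 E- sets of each library, Trbc2 is highest in the C+ sets, and Mpo is highest in cells with neither gene.

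Genes of committed B cell precursors came almost wholly from 6 WT cells. These held between 23 and 104 UMIs of Vpreb1, Vpreb3, Igll1 and Cd79a together, while no other WT lymphoid-primed cell had more than 2 and no KO cell more than 3. Vpreb1 and Igll1 encode parts of the surrogate light chain of the pre-B cell receptor, and Cd79a a signalling subunit of this receptor. The 6 cells held 176 of 177 Vpreb3 UMIs and 131 of 148 Vpreb1 UMIs, and all 47 UMIs of Igll1, all 11 of Pax5, the factor of B cell commitment, and all 26 of Lef1. They made up 2.30% of the WT cells (0.85 to 4.94), whereas 0 of 180 KO cells allows a share of up to 1.67% by the limit of 3 counts, or 2.03% by the Clopper-Pearson interval. Among other LSK cells 0 of 5091 WT and 1 of 2562 KO cells passed the same limit of 5 UMIs, which was set after the values were seen. A difference in the share of such cells was not detectable with these numbers. Of the 6 cells, 1 was among the highest doublet scores, and their median was 11468.5 UMIs. Whether they were doublets or B cell precursors within the sorted gate was not tested, and this bears on the WT levels of Ebf1, Rag1, Chchd10 and the B lineage genes.

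Unlike Trbc2, which 76.6% of WT and 76.7% of KO cells held, Tcf7 and Cd3g were carried by few cells. Tcf7, the early T cell factor, was at 4.81 CPM in WT and 11.3 in KO, with 6 and 7 cells holding a UMI, and the 3 highest cells held 87.1% and 86.7% of them. Of the 72 Cd3g UMIs in KO, 58 came from 1 cell, beside 11 UMIs over 5 WT cells.

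Bclaf1, the targeted gene on chromosome 10 (10:20310512-20342644, GRCm38.p6), was at 223 CPM in WT and 75.8 CPM in KO lymphoid-primed cells, a log2 ratio of -1.56 (-1.71 to -1.41). The ratio in other LSK cells was -1.52, and it was -0.97 in the 119 WT and 70 KO cells chosen and measured after thinning. Some Bclaf1 transcript is still counted in KO; which exons are removed is not given in the sources used here, and 3' counting can read transcripts made from a deleted allele. A UMI was found in 94.3% of WT and 86.1% of KO cells.

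KO was compared with WT over 5308 genes with at least 20 CPM on average. In KO, 546 genes were at least 25% higher (10.3%) and 110 at least 20% lower (2.07%), so that 83.2% of the genes past a limit were higher. This split depended on scaling: with median-of-ratios scaling 60.0% of them were higher (334 higher, 223 lower), and with TMM scaling 49.0% (272 and 283). The median log2 ratio over all genes was 0.059, close to 0.057 in other LSK cells. Counts for the gene lists below are to be read beside the shares of all genes, 10.3% higher and 2.07% lower.

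Immediate early genes, which respond rapidly to stimulation, were the list with the highest median among those measured at 20 CPM or more; at 50 CPM or more the NF-kB response list stood higher, at 1.01 against 0.88. Fos, which pairs with JUN proteins in AP-1, was at 46.2 CPM in WT and 203 in KO, a log2 ratio of 2.13 (1.95 to 2.32), beside 1.83 in other LSK cells. A Fos UMI was found in 41.0% of WT and 86.7% of KO lymphoid-primed cells. Jun was at 297 and 643 CPM (1.11, 1.03 to 1.19). Klf2, a factor that controls lymphocyte homing and quiescence, was at 10.4 and 38.7 CPM (1.90, 1.5 to 2.31), and Zfp36, which destabilises messages of cytokines, at 35.1 and 93.8 CPM (1.42, 1.20 to 1.65). Ier3 was at 22.3 and 61.7 CPM and Ppp1r15a, which reverses the translation block of the stress response, at 13.3 and 32.4 (1.28, and 0.32 after thinning). Of 16 measured genes of this list, 15 were at least 25% higher in KO and 0 at least 20% lower. Their median log2 ratio was 0.91. In other LSK cells the same genes had a median of 0.86, so the list stood about as high outside the group.

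This pattern was present in each of the 4 sets defined by Ebf1 and Ccr9. The Fos log2 ratio was 2.10 in cells with both, 3.37 with Ebf1 alone, 2.13 with Ccr9 alone and 1.82 with neither. The median of immediate early genes was 0.75, 1.12, 0.86 and 1.10 in the same order. Both libraries were made from cells that were bead-enriched, stained and sorted, and the part of handling in these values was not tested.

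Plk2, a kinase induced by stress and p53, was at 10.6 CPM in WT and 47.7 in KO (2.18, 1.80 to 2.58), beside a log2 ratio of 1.42 in other cells. Other p53 targets did not share this size. Of 10 measured ones, 2 were at least 25% higher, Plk2 and Btg2 (114 and 186 CPM), and the median was 0.05. Bcl2l11, which encodes the death-promoting BIM that IL-7 withdrawal induces in lymphocytes, was at 23.6 and 46.2 CPM (0.97). Bcl2, the survival gene downstream of IL-7, was at 23.9 and 34.5 CPM (0.53). Bax, at 99.8 and 94.1 CPM, was within 25%.

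Ccl3 and Ccl4 encode chemokines. Ccl3, which attracts myeloid and lymphoid cells, was at 34.6 CPM in WT and 104 in KO (1.59, 1.37 to 1.81), and Ccl4 at 105 and 211 (1.01). In other LSK cells the log2 ratios were 1.10 and 0.44. Dusp2, a phosphatase that ends MAP kinase signals, was at 115 and 209 CPM (0.87), against a ratio of 0.33 in other cells. The Ccl4 ratio exceeded that of other cells by 0.57 (0.43 to 0.71) and the Dusp2 ratio by 0.53 (0.40 to 0.67) on the log2 scale, with intervals for counting error. In the other cells that passed the same CD48 and lineage limits the ratios were nearer, at 0.84 for Ccl4 and 0.56 for Dusp2. Ccl4 and Dusp2 were named here after their values were seen. Rgs1, which dampens chemokine receptor signals, was at 29.2 and 70.4 CPM (1.27). In the cells chosen and measured after thinning the log2 ratio was 0.91 for Ccl3 and 0.32 for Rgs1. Of 7 measured NF-kB response genes 5 were at least 25% higher, and their median of 0.44 was the same in other cells. It was 1.03 in lymphoid-primed cells with at most 40000 UMIs.

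The stress lists were mixed. The inducible chaperone Hspa1a was at 104 CPM in WT and 254 in KO (1.29), whereas the constitutive Hspa8 was at 1769.7 and 1783.9, and 4 of 11 heat shock genes were at least 25% higher. Of 7 measured genes of the ATF4 response, also 4 were at least 25% higher, among them Atf4 (56.8 and 78.8 CPM) and Cebpb (48.9 and 73.6), with a median of 0.40. Of 35 splicing factors, 7 were at least 25% higher and 0 at least 20% lower. Thrap3, a relative of BCLAF1, was at 162 and 248 CPM (0.61), Srsf5 at 221 and 356 (0.69) and Clk1, a kinase of SR proteins, at 92.3 and 144 (0.64). Hist1h2ap, a replication-dependent histone gene, was at 2547 and 5249 CPM (1.04), and the nuclear RNA Neat1 at 57.4 and 123 (1.10).

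**Figure D4:**
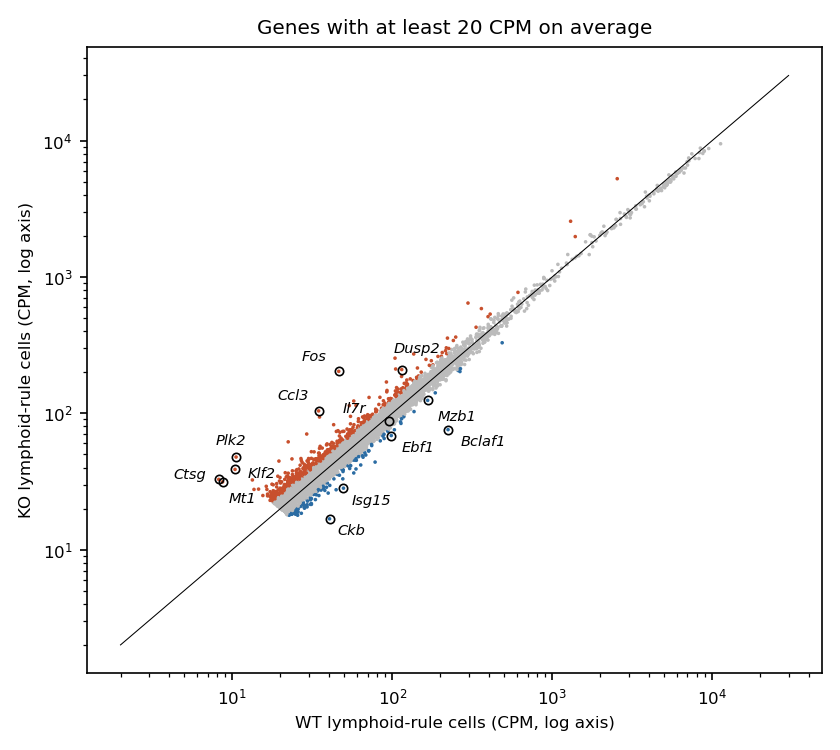
Level of each of 5308 genes in lymphoid-primed cells of KO (vertical log axis, CPM) against WT (horizontal log axis, CPM), each point 1 gene summed over 261 WT and 180 KO cells. Red points are at least 25% higher in KO (546), blue points at least 20% lower (110), and Fos, at 46.2 and 203 CPM, lies far above the line of equal levels while Bclaf1, at 223 and 75.8, lies far below it.

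Mt1 and Ctsg need separate mention. The metallothionein gene Mt1 was at 8.69 CPM in WT and 31.4 in KO (1.85), but it was abundant in empty droplets, at 597 and 1325 CPM. Ctsg, a granulocyte protease, was at 8.23 and 32.7 CPM (1.99), and 1 cell gave 30.2% of its UMIs in WT and 38.5% in KO. Without the cell of each library with the most UMIs of the gene, a comparison added after the data were seen, the log2 ratio was 1.81 for Ctsg and 1.89 for Mt1. With the empty-droplet profile subtracted at 2% of UMIs, the Ctsg ratio was 2.08, while no Mt1 was left in WT. AY036118 was lower in KO, at 486 and 329 CPM, and in empty droplets at 4818 and 687.

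Genes of the lymphoid programme itself differed less. Flt3, which the rule did not use, was at 170 CPM in WT and 163 in KO, and Notch1 at 147 and 157. Il7r was at 94.7 and 87.8 CPM (-0.11, -0.27 to 0.06) and Ccr9 at 153 and 145. Il7r and Ccr9 chose the cells, so their similar levels are in part set by the rule. In other LSK cells, where both were scarcer, the log2 ratio was -0.57 for each. Under the same CD48 and lineage limits it was -0.42 for Il7r and -0.27 for Ccr9. The rule takes cells with more of these transcripts out of the other cells, and finds more of them at greater depth. The ratios in other cells are thus in part set by the rule too. Of 20 measured genes of early lymphoid priming 0 were at least 25% higher and 2 at least 20% lower, Ebf1 and the lymphotoxin gene Ltb (65.6 and 47.6 CPM), with a median of -0.03. The full priming list includes the 5 rule genes. Of 21 lymphoid transcription factors 3 were at least 25% higher, with Runx3 at 60.5 and 78.5 CPM as an example, and 1 was at least 20% lower, Nfil3 (29.3 and 21.3). Over all 5308 genes these shares were 10.3% and 2.07%, so counts this small do not set the list apart. Of 14 measured IL-7 receptor signalling genes, here with Il7r included, 4 were at least 25% higher, Klf2, Bcl2, Pim1 (106 and 135 CPM) and Pik3r1 (117 and 150). The receptor partner Il2rg, at 41.3 and 39.3 CPM, and the kinase Jak1, at 74.5 and 82.1, were within these limits. For recombination, Rag2 was at 21.0 and 18.0 CPM, and none of the 7 measured genes of this list passed either limit.

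Ebf1 was at 98.6 CPM in WT and 68.6 in KO (-0.52, -0.70 to -0.35), but the 6 WT cells with B lineage genes held 165 of its 635 WT UMIs. Without them the WT level was 74.0 CPM and the log2 ratio -0.11 (-0.30 to 0.08). Rag1 changed likewise, from 14.0 against 9.31 CPM to 9.76 against 9.31. Mzb1 was at 166 and 124 CPM (-0.42, -0.55 to -0.29) with the 6 cells and had a log2 ratio of -0.34 (-0.47 to -0.20) without them, and of -0.11 in cells with at most 40000 UMIs. In the Ebf1 and Ccr9 sets the Mzb1 ratio was -0.02 in cells with both genes, -1.09 with Ebf1 alone, -0.51 with Ccr9 alone and -0.66 with neither. Of the 4 measured B lineage genes, 3 were at least 20% lower in KO, and their median of -0.44 was -0.11 in cells with at most 40000 UMIs. Ighm was the fourth, at 218 and 233 CPM (0.10, -0.01 to 0.20).

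Among T and natural killer genes, Trbc2 was at 317 CPM in WT and 280 in KO (-0.18, -0.27 to -0.09), Trbc1 at 28.2 and 20.6 (-0.46, -0.79 to -0.13) and Lck at 30.9 and 23.3 (-0.41, -0.72 to -0.10). The Trbc2 ratio was near 0 in cells with Ccr9, at 0.03 with and -0.03 without Ebf1, and was -0.59 in cells with Ebf1 alone and -1.07 in cells with neither gene. Of the 8 measured genes of this list, 3 were at least 20% lower and 2 at least 25% higher.

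Interferon-induced genes were on the lower side. Isg15, a ubiquitin-like modifier, was at 49.5 CPM in WT and 28.2 in KO (-0.81, -1.08 to -0.55) and Xaf1 at 39.7 and 26.0 (-0.61, -0.90 to -0.33). Ifi27 was at 137 and 103 CPM. Of 21 measured genes of the list 6 were at least 20% lower and 1 at least 25% higher, and the median was -0.14, beside -0.23 in other LSK cells. The exception was Ifitm1, a membrane protein that blocks viral entry, at 409 and 534 CPM. Of the 7 MHC class I genes none passed either limit, with a median of -0.09.

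Ckb, the brain-type creatine kinase, was the lowest gene in KO after Bclaf1, at 40.5 CPM in WT and 16.8 in KO (-1.27, -1.60 to -0.94), beside -0.74 in other cells. Tnfaip8l2, a negative regulator of immune signalling, was at 78.1 and 43.8 CPM (-0.83, -1.05 to -0.62). Cox6a2 was at 57.4 and 36.5 CPM (-0.65, -0.89 to -0.42), beside -0.08 in other cells, where it was scarce. Capg (63.5 and 41.7 CPM), Shisa8 (59.3 and 39.0), Tbxa2r, the thromboxane receptor (49.0 and 33.0), Cyba, a subunit of the phagocyte oxidase (265 and 202), and the protease Napsa (103 and 75.7) were further ranked genes that were lower in KO. Chchd10, a mitochondrial protein, was at 44.5 and 27.5 CPM (-0.70, -0.97 to -0.42). Without the 6 WT cells its WT level was 29.0 CPM and its log2 ratio -0.08 (-0.38 to 0.23).

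The direction of cycle genes depended on which cells were compared. Of 34 G2 and M phase genes measured, 18 were at least 25% higher in KO and 0 at least 20% lower, with Cenpf at 144 and 215 CPM and a list median of 0.33. The median was 0.28 in other LSK cells. It was 0.45 in lymphoid-primed cells with both Ebf1 and Ccr9, 0.05 with Ebf1 alone, 0.28 with Ccr9 alone and 0.30 with neither. Among cells with at most 40000 UMIs, 235 of the WT and 120 of the KO cells, the median was -0.13. The S phase median was 0.15 over all cells and -0.18 in this range. The granulocyte-monocyte list, with 4 of 7 measured genes at least 25% higher and a median of 0.32, stood at -0.09 in this range and at -0.14 after thinning. Large cells in cycle hold more RNA and the KO library was deeper, and the parts of size, cycle and depth in these values cannot be told apart.

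Genes of the fetal programme were close between libraries. Hmga2, a chromatin protein of fetal progenitors, was at 432 CPM in WT and 482 in KO, Lin28b, which blocks let-7 maturation, at 19.7 and 21.2, and Igf2bp3 at 79.3 and 80.6. Of 9 measured genes 1 was at least 25% higher, Hmga1 (124 and 163 CPM), and 0 were at least 20% lower. Of 12 measured homing and adhesion genes, Itgb1 (108 and 143 CPM) alone was at least 25% higher, while Itga4, the integrin alpha 4 chain, was at 153 and 190.

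**Figure D5:**
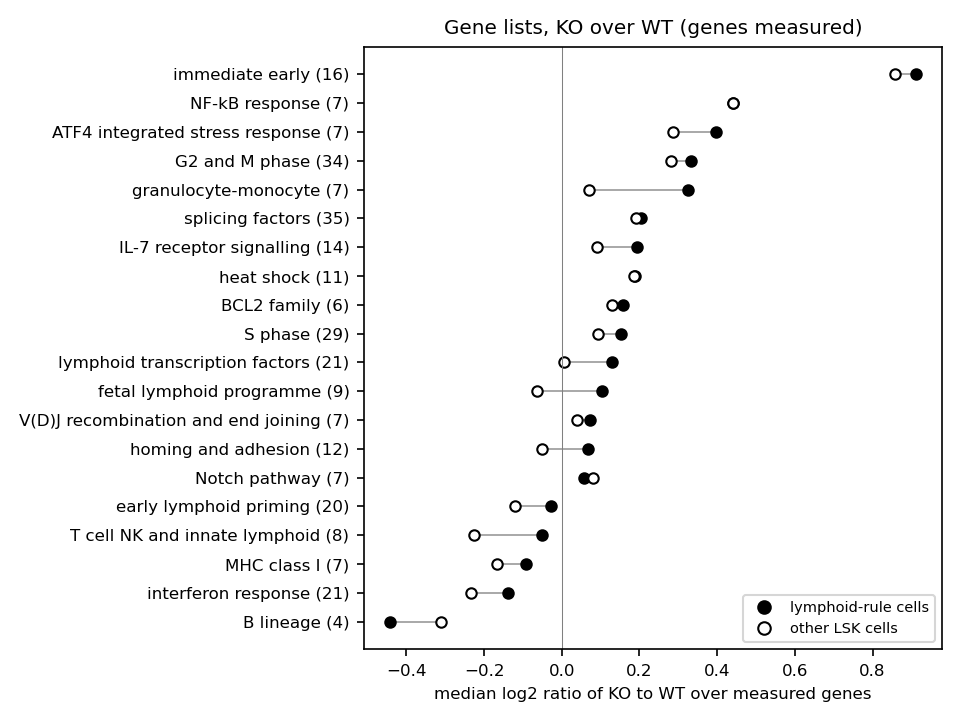
Median log2 ratio of KO to WT (horizontal axis) over the measured genes of 20 lists (number of genes in brackets) in lymphoid-primed cells (filled) and other LSK cells (open). At this limit of 20 CPM immediate early genes stand highest in both, at 0.91 and 0.86, and the B lineage list lowest in both, at -0.44 over 4 genes in lymphoid-primed cells, 1 of them (Ebf1) a gene of the rule.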

How the data were processed

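The deposited values were unfiltered UMI counts for each barcode, by gene and by antibody, which the authors made with Cell Ranger, per the file headers. Version 4.0.6 and genome build mm10 come from the submitters' processing notes, which also name Seurat and DESeq without steps. Values were whole numbers over 2395014 WT and 2456731 KO barcodes and 32285 genes. There were 4 samples in 4 groups, RNA and antibodies of 1 library for each genotype.

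UMIs were summed over the chosen cells of each library and scaled to CPM. For ratios the 95% interval is the exact conditional binomial one, shares have Clopper-Pearson intervals and their differences Newcombe intervals, all for counting error only. A difference of 2 log2 ratios carries an interval from their summed counting variances. No test, standard error or p-value was made. Genes entered the KO to WT comparison at 20 CPM or more on average of both libraries. A gene was counted as at least 25% higher or at least 20% lower in KO, or as at least 2-fold apart from other LSK cells in both libraries. At 6443330 and 6661110 gene UMIs, 1 UMI was worth 0.155 CPM in WT and 0.150 CPM in KO. Free RNA was taken from barcodes with 10 to 100 UMIs.

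Named genes were Bclaf1, the genes and markers of the rule, the 15 highest and 15 lowest KO to WT ratios by the interval bound nearest to 0 (haemoglobin and sex-linked genes left out), the 20 highest and 10 lowest against other cells by the smaller fold of both libraries, and up to 6 members of each list by role, with exceptions marked. A few genes that this rule names are not reported here. The cell rule, the 32 gene lists and the limits were chosen with earlier results of these data known. Alternatives covered depth (thinning to 8000 UMIs, a maximum of 40000), cell filters, scaling by median-of-ratios and TMM (edgeR 4.0.16), gene limits, equal weight per cell, subtraction of the empty-droplet profile, dropping the top Scrublet scores (229 cells in WT, 60 in KO, scanpy 1.11.5, expected rate 6%), and other cells under the same gates. Leaving out the 6 WT cells with B lineage UMIs, or the highest cell of each library for Irf8, Ctsg and Mt1, was added after seeing the data. The ratio and its interval were tested on simulated data. Gene positions came from RefSeq on GRCm38.p6, the assembly of mm10.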

Additional observations from a re-analysis of the deposited data

Results flagged for a closer look

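With the genes of the rule left out, 7 genes reported here had KO to WT log2 ratios of opposite sign in lymphoid-primed and other LSK cells. Both counting intervals were off 0. The rule gene Ebf1 also met this, at -0.52 against 0.65, though other LSK cells held little of it (0.622 CPM in WT, 0.977 in KO). Without the 6 WT cells with B lineage transcripts its ratio in lymphoid-primed cells was -0.11 (-0.30 to 0.08). In the other cells that passed the same CD48 and lineage limits, none of the 7 had the opposite sign, while Ebf1, at 0.46, did. The difference between the groups was not tested, since there was 1 library per genotype. In those gated cells the ratio was 0.049 for Ifitm1, 0.040 for Irf8, 0.18 for Rel, 0.10 for Emb, 0.15 for Hmga2, 0.17 for Mef2c and -0.16 for Chchd10. Higher in KO among lymphoid-primed cells and lower among the others were Ifitm1 (0.38 against -0.32), Irf8 (0.32 against -0.14), the NF-kB subunit gene Rel (0.32 against -0.097), Emb (0.16 against -0.099), Hmga2 (0.16 against -0.14) and Mef2c (0.085 against -0.052). Chchd10 was on the other side (-0.70 against 0.15), and its ratio was -0.08 without the 6 WT cells that held B lineage transcripts. Ifitm1 was at 409 CPM in WT and 534 in KO lymphoid-primed cells, and at 811 and 649 in other LSK cells. Irf8, at 86.3 and 108 CPM in lymphoid-primed cells, was higher in cells without Ebf1 and in cells without Ccr9 in both libraries. In KO 1 cell held 148 of the 720 Irf8 UMIs, and without the highest cell of each library the levels were 79.3 and 86.9 CPM, a log2 ratio of 0.13 (-0.04 to 0.31). The size of the ratio was 25% or more for Ifitm1, Irf8 and Rel on the higher side, and under that for the remaining higher genes.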

How the results depend on the processing

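With 1 library per genotype, no replicate could be left out. No paired analysis was possible because each genotype had 1 library. The KO excess in the share of lymphoid-primed cells was 1.69 points and between 1.33 and 1.94 under 8 of 9 alternatives, and 0.33 after thinning. Genes at least 25% higher in KO numbered 546; they were 334 with median-of-ratios and 272 with TMM scaling, 173 at 50 CPM or more, 1384 at 5 CPM or more, 80 past 1.5-fold and 1525 after thinning. Genes at least 20% lower numbered 110, and 223, 283, 34, 500, 9 and 764 under the same settings, 175 with at least 2 Il7r UMIs alone as the rule and 284 in cells of at most 40000 UMIs. Genes at least 2-fold above other cells numbered 102, and 178 after thinning, 262 at 1.5-fold and 45 at 50 CPM. Those at least 2-fold below numbered 76, and 33 against other cells under the same gates, 115 after thinning, 180 at 1.5-fold and 27 at 50 CPM. The causes were not tested beyond how each setting is built.

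The median of immediate early genes stayed between 0.83 and 1.18, and the Fos ratio between 2.05 and 2.40, over the alternatives run. Medians that changed sign were granulocyte-monocyte (-0.14 after thinning, -0.087 at most 40000 UMIs), S phase (-0.18) and G2 and M phase (-0.13, both at most 40000 UMIs). Without the 6 WT cells the Ebf1 ratio was -0.11, the Chchd10 ratio -0.08 and the B lineage median -0.22. Against other cells under the same gates, the log2 ratio of lymphoid-primed to other cells was 0.48 for Tpsb2 in KO, and 1.46 for S100a8 and 0.13 for S100a9 in WT. As tags per 1000 tags, the CD48 median was 32.5 higher in KO than in WT, and the Sca1 median of KO lymphoid-primed cells differed from other cells by -0.81. After thinning, Sca1 differed by 0.0086 in WT and -0.062 in KO.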
